A study of Mus musculus with 3 samples.

Results

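The 10 genes described here, Wnt4, Rspo1, Lgr5, Sp5, Nr0b1, Foxl2, Fst, Bmp2, Msx2 and Dapl1, are somatic regulators, signals and targets of the fetal ovary and of its Wnt pathway, and were measured in fetal testes. They were found by matching the transcript accession of each array probe to a mouse gene table, and each of the 10 had 1 probe, among 16531 genes named on the array. Of the 10, 9 were tested, as part of 21552 features that included 13294 named genes. A feature was tested when its probe stood well above background, as the scanner software defines it, on both arrays of at least 1 genotype. Foxl2 did not meet that condition.

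Gonads were taken from male mice at embryonic day 14.5, of a line that the labels call MCH, and their total RNA was hybridised with a single dye to Agilent mouse arrays. The 3 genotypes had 2 arrays each. The first was Cyp26b1 knockout with Stra8 knockout, called double knockout here. The second was Cyp26b1 knockout with Stra8 wild type, called Cyp26b1 knockout, and the third was wild type at both genes. The duplicates are biological according to the series' design text. Whether an array held 1 embryo or several is not given, so p-values measure the spread between these arrays alone. CYP26B1 breaks down retinoic acid, and STRA8 is a factor that germ cells need to enter meiosis.

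In the mouse gonad the ovarian path depends on WNT4 and RSPO1, secreted signals that stabilise beta-catenin in somatic cells, and on the forkhead factor FOXL2. R-spondins act through receptors of the LGR family to keep Frizzled receptors on the cell surface, so that a Wnt ligand gives a stronger signal. Active beta-catenin then works with TCF and LEF factors at target genes such as Sp5 and Axin2. Follistatin, a secreted protein that binds activin, acts downstream of Wnt4 in the mouse fetal ovary. In the testis the Sertoli cells, marked by Sox9 and Amh, hold this path down.

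The targeted genes and the tissue were checked first. The Cyp26b1 probe gave levels of 4.06 and 3.87 in double knockout, 4.23 and 3.78 in Cyp26b1 knockout, and 3.99 and 3.79 in wild type. Here and below a level is the log2 of a signal, with the 75th percentile of the array set to 0. The Stra8 probe gave 5.93 and 6.09 in the arrays labelled double knockout, 7.15 and 6.99 in Cyp26b1 knockout, and 3.69 and 2.37 in wild type. Against their labels, the double knockout arrays thus had more Stra8 signal than wild type (log2 change 2.98, limma adjusted p = 0.00377), and Cyp26b1 was not called lower in either knockout. The sources used here do not say whether these probes lie inside the deletions. A genotype named below is therefore the label of its arrays, and a direction holds between labels. The Sertoli markers Sox9, Amh and Dhh, the Leydig marker Cyp17a1 and the germ cell markers Ddx4 and Dazl were well above background on all 6 arrays.

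Each genotype occupied a slide of its own, and the Cyp26b1 knockout slide was scanned on another day than the other slides, so genotype, slide and scan cannot be told apart. Between the arrays labelled Cyp26b1 knockout and wild type, 51.1% of the features passed the test, which is limma at an adjusted p under 0.05, with 21.3% higher and 29.8% lower. Between double knockout and wild type 11.9% passed, with 5.31% higher and 6.54% lower. Between double knockout and Cyp26b1 knockout 42.9% passed, with 25.3% higher and 17.6% lower. A gene that passed is said below to have risen or fallen, or to be called. In both comparisons that involve the Cyp26b1 knockout slide, probes of the same gene often disagreed. Of 1845 genes with at least 2 called probes in Cyp26b1 knockout against wild type, 25.4% had called probes in both directions, and in double knockout against Cyp26b1 knockout this was 31.7% of 1532 genes. For double knockout against wild type, whose slides shared a scan day, it was 2.40% of 250 genes. The part of the slide or scan in any value below was not tested, and no gene of the 10 has another probe to set beside its own.

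**Figure D1:**
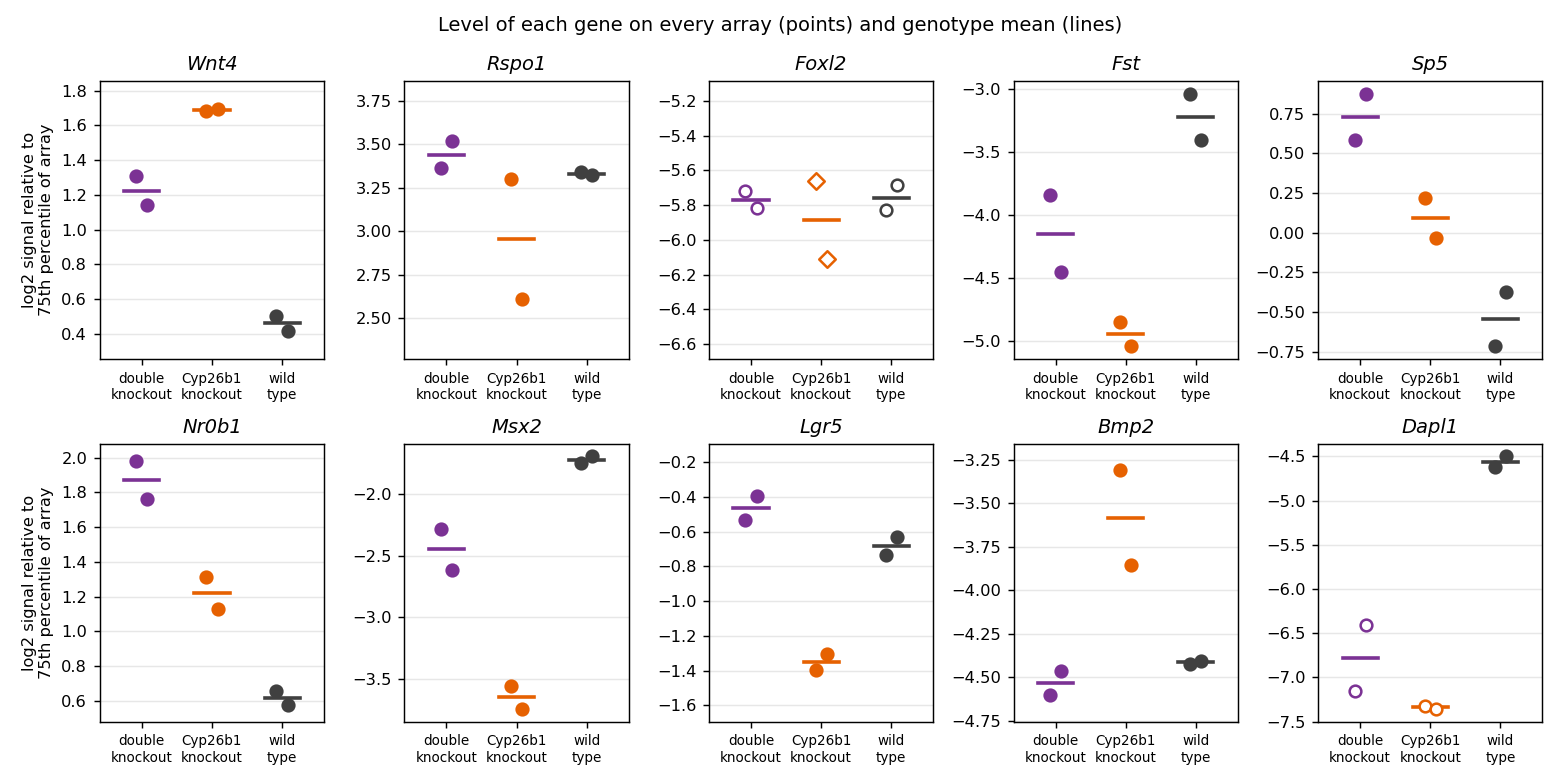
Level of each of the 10 genes on every array, as log2 signal with the array 75th percentile at 0, and with the vertical axis set for each gene. Points are arrays, lines are genotype means, open circles mark genotypes with no array well above background and open diamonds a genotype with 1 such array. Wnt4 stands highest in Cyp26b1 knockout, Sp5 and Nr0b1 in double knockout, and Fst, Msx2 and Dapl1 in wild type.

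The members did not move as one group. In Cyp26b1 knockout against wild type, 4 of the 9 tested genes rose (Wnt4, Sp5, Nr0b1, Bmp2) and 4 fell (Fst, Msx2, Lgr5, Dapl1), while Rspo1 was not called. That share of calls stands against 51.1% of all features. Between double knockout and wild type, 3 rose (Wnt4, Sp5, Nr0b1) and 2 fell (Msx2, Dapl1), against 11.9% of all features called. Set against Cyp26b1 knockout, double knockout had 5 that rose (Fst, Sp5, Nr0b1, Msx2, Lgr5) and 2 that fell (Wnt4, Bmp2), against 42.9% of all features. The median log2 change of the 9 genes was -0.375, 0.109 and 0.637 in these 3 comparisons, and that of all features was -0.0900, -0.0170 and 0.0921. Each pair of these comparisons shares the arrays of 1 genotype, so their values are not independent of each other. Dapl1 passed the filter through wild type alone, where it was high, so the filter favoured a difference and its place in these counts and medians supports nothing. The arrays of the genotypes compared did not overlap for any of the 9 genes in any of the 3 comparisons, but the same held for 77.8%, 62.2% and 71.8% of all features, so a gap between arrays is a description here. In whole gonads fewer cells of a type and less RNA per cell cannot be told apart.

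Among the signals, Wnt4, the ligand that opposes the male path in the mouse gonad, was higher in both sets of knockout arrays. It gave levels of 1.31 and 1.14 in double knockout, 1.68 and 1.69 in Cyp26b1 knockout, and 0.51 and 0.42 in wild type. The 3 genotypes did not overlap, and Cyp26b1 knockout stood on top. The change was 1.23 ± 0.09 (log2 ± SE) in Cyp26b1 knockout against wild type, a 2.34-fold rise with an adjusted p of 0.000144. It was 0.76 ± 0.09 in double knockout against wild type, a 1.70-fold rise with an adjusted p of 0.00382. Wnt4 fell by 0.46 ± 0.09 in double knockout against Cyp26b1 knockout (adjusted p = 0.00666). The last call was lost with one form of background correction, the normexp fit on all spots (adjusted p = 0.0755).

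Rspo1, the R-spondin whose loss turns XX mouse gonads towards testis, was not called in any of the 3 comparisons. Its levels were 3.36 and 3.52 in double knockout, 3.30 and 2.61 in Cyp26b1 knockout, and 3.34 and 3.32 in wild type. A single array, the second labelled Cyp26b1 knockout, stood apart from the other 5. The change was -0.37 ± 0.20 in Cyp26b1 knockout against wild type (adjusted p = 0.153), with a 95% interval from -0.84 to 0.09. Its change was 0.11 in double knockout against wild type, with an interval from -0.36 to 0.57, and it took the opposite sign (-0.09) when genotypes were centred as in the authors' value table. Double knockout differed from Cyp26b1 knockout by 0.48 (adjusted p = 0.0866). Without the first Cyp26b1 knockout array, which leaves only the low one, Rspo1 was called in Cyp26b1 knockout against wild type (-0.72, adjusted p = 0.00353) and in double knockout against Cyp26b1 knockout (0.83, adjusted p = 0.00459). Scaling to the median of each array also called it in double knockout against Cyp26b1 knockout (0.60, adjusted p = 0.0422).

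Lgr5, an R-spondin receptor that is itself a Wnt target in many tissues, was lower in the arrays labelled Cyp26b1 knockout than in the other genotypes. Its levels were -0.53 and -0.39 in double knockout, -1.40 and -1.30 in Cyp26b1 knockout, and -0.73 and -0.63 in wild type. It fell by 0.67 ± 0.11 in Cyp26b1 knockout against wild type (adjusted p = 0.00209), a call lost with the normexp fit on all spots (adjusted p = 0.0655). It rose by 0.89 ± 0.11 in double knockout against Cyp26b1 knockout (adjusted p = 0.00115). Double knockout and wild type stood next to each other, with a change of 0.22 and a 95% interval from -0.03 to 0.47 (adjusted p = 0.223).

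Sp5 and Nr0b1 shared an order, with double knockout on top, Cyp26b1 knockout next and wild type lowest. Sp5 encodes a zinc finger factor that beta-catenin switches on directly. Nr0b1, also known as Dax1, encodes an X-linked nuclear receptor that opposes the steroidogenic factor SF1 and that, in excess, disturbs testis development. They are also the only members whose upstream sequence, among those available, held a searched motif, and these sequences are printed here for that reason. The first 250 bases before the RefSeq start are given from 5′ to 3′ on the coding strand, from build GRCm38.p6, with matches in capitals. Sp5 lies at chr2:70474673-70474922 and Nr0b1 at chrX:86191525-86191774, both on the plus strand.
Sp5: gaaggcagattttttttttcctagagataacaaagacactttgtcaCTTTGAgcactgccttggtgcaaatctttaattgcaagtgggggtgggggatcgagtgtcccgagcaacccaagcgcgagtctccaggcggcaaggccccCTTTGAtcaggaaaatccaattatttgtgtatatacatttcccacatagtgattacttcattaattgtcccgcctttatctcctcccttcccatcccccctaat
Nr0b1: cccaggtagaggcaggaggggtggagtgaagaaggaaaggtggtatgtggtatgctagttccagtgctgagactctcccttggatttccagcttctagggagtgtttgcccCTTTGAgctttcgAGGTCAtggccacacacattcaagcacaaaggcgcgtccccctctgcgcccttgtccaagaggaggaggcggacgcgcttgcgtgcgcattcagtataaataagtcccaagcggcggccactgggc
The capitals in Sp5 mark 2 copies of CTTTGA, the core letters of TCF and LEF sites, whose first bases lie 204 and 104 bases before the start. Nr0b1 holds 1 copy of CTTTGA, 139 bases before the start, and 1 of AGGTCA, 126 bases before it. AGGTCA is the half-site that nuclear receptors, those of retinoic acid included, recognise.

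The motifs were searched on both strands in 300 bases, from 250 before to 50 after the start. Of 32851 mouse promoters of that length, 16.0% held CTTTGA and 16.3% held AGGTCA. Promoters of Wnt4, Rspo1, Foxl2, Msx2 and Dapl1 held neither motif, and 7 of the 10 genes had a promoter to search. None of the 7 held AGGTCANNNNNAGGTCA or AGGTCANNAGGTCA, repeats of the half-site with 5 or 2 bases between them, which include the single half-site and were found in 3 promoters each. A match describes the letters of this window and nothing more.

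Sp5 gave levels of 0.58 and 0.87 in double knockout, 0.22 and -0.04 in Cyp26b1 knockout, and -0.72 and -0.38 in wild type. The genotypes did not overlap. It rose by 1.27 ± 0.16 in double knockout against wild type (adjusted p = 0.00434), a 2.42-fold rise that held under all 18 other settings tried. In Cyp26b1 knockout against wild type it rose by 0.64 ± 0.16 (adjusted p = 0.0130), but was not called without the first Cyp26b1 knockout array (adjusted p = 0.0744) or the first wild-type array (adjusted p = 0.0848). It rose by 0.64 ± 0.16 in double knockout against Cyp26b1 knockout (adjusted p = 0.0161). That call was lost without the second double knockout array (adjusted p = 0.0805), without the second Cyp26b1 knockout array (adjusted p = 0.0827) and with the authors' centring (0.33, adjusted p = 0.128).

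Nr0b1 gave levels of 1.98 and 1.76 in double knockout, 1.31 and 1.13 in Cyp26b1 knockout, and 0.66 and 0.58 in wild type. No genotype overlapped another. It rose by 1.25 ± 0.11 in double knockout against wild type (2.39-fold, adjusted p = 0.00132) and by 0.60 ± 0.11 in Cyp26b1 knockout against wild type (1.52-fold, adjusted p = 0.00329). Against Cyp26b1 knockout, double knockout was 0.65 ± 0.11 higher (adjusted p = 0.00337). All 3 calls held under each of the 18 other settings. Over the 6 arrays Sp5 and Nr0b1 had a Pearson r of 0.935, a description of 6 points that fall into 3 genotypes.

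**Figure D2:**
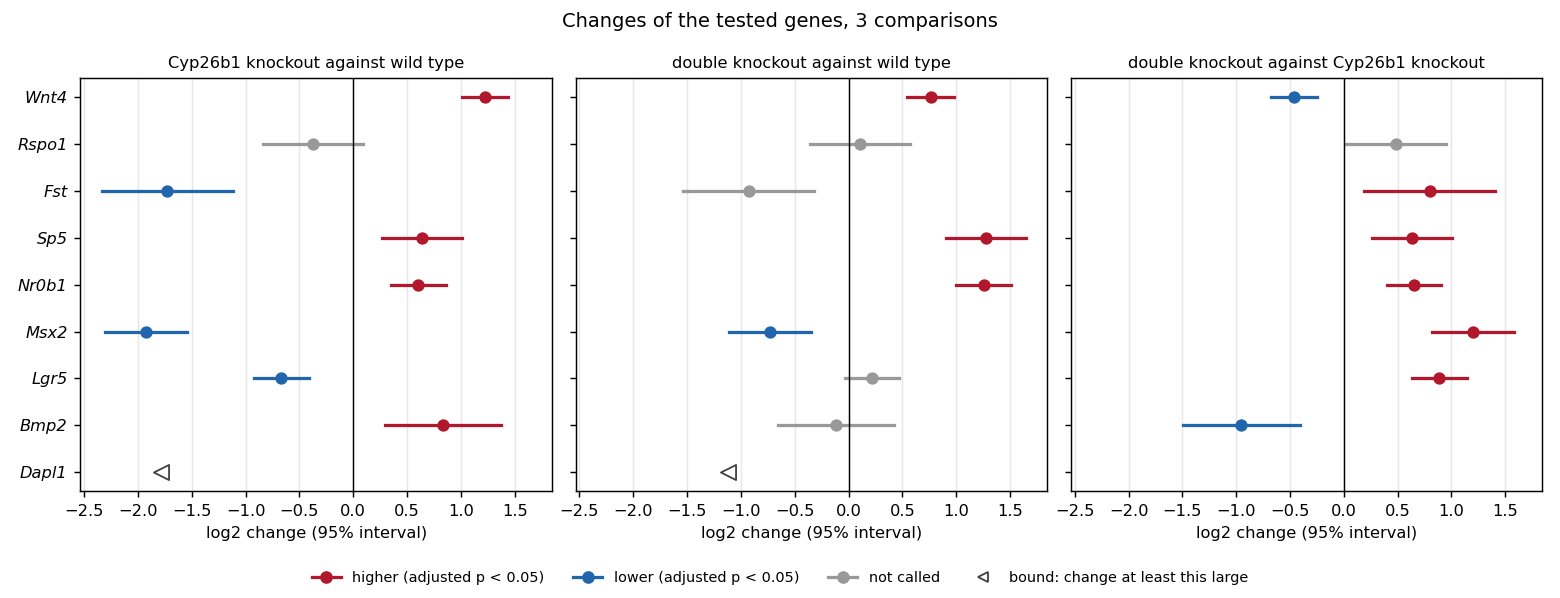
Log2 change of the 9 tested genes with 95% intervals in the 3 comparisons, the genotype named first over the one named second. Red and blue mark changes with an adjusted p under 0.05 and grey those above it, and the triangle gives the bound of Dapl1, which has none in the right-hand panel. Nr0b1 and Sp5 lie right of 0 in every panel, while Msx2 and Fst lie left of 0 against wild type and right of it against Cyp26b1 knockout.

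Foxl2, the forkhead factor of pregranulosa cells, was at the floor of the arrays. Its levels were -5.72 and -5.82 in double knockout, -5.66 and -6.11 in Cyp26b1 knockout, and -5.83 and -5.69 in wild type. It was well above background on 0 of 2, 1 of 2 and 0 of 2 arrays in that order. On single arrays the lowest level of any probe well above background lay between -6.46 and -5.64. No genotype stood apart, and no fold is given. A change of Foxl2 below that floor was not detectable on these arrays.

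Fst, which encodes follistatin, was highest in wild type. Its levels were -3.84 and -4.45 in double knockout, -4.85 and -5.04 in Cyp26b1 knockout, and -3.04 and -3.41 in wild type. It fell by 1.73 ± 0.26 in Cyp26b1 knockout against wild type, to 0.302 of the wild-type level (adjusted p = 0.00154), a call lost with the normexp fit on all spots (adjusted p = 0.295). The change was -0.93 ± 0.26 in double knockout against wild type, with a 95% interval from -1.54 to -0.32, and was not called (adjusted p = 0.0613). It was called without the first double knockout array (-1.23, adjusted p = 0.0413) and with array number as a block (adjusted p = 0.0290), and with the authors' centring (-1.13, adjusted p = 0.0235). Fst rose by 0.80 ± 0.26 in double knockout against Cyp26b1 knockout (adjusted p = 0.0419). That call was lost under 11 of the 18 other settings, with adjusted p up to 0.934. They include the loss of either Cyp26b1 knockout array (adjusted p = 0.0800 and 0.143), either wild-type array (0.0627 and 0.0607) or the first double knockout array (0.195).

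Bmp2 and Msx2 were printed in 10 spots on each array, so the error of a spot can be set beside the spread between arrays. Bmp2, a ligand of the bone morphogenetic protein family that fetal ovaries express, gave array means of -4.61 and -4.46 in double knockout, -3.31 and -3.86 in Cyp26b1 knockout, and -4.42 and -4.41 in wild type. The Cyp26b1 knockout arrays stood above the other 4. The spots of the first Cyp26b1 knockout array ran from -3.41 to -3.20 and those of the second from -3.92 to -3.75, with spot SDs of 0.0593 (9 spots) and 0.0604 (10 spots). These arrays of 1 genotype therefore differed from each other by more than the error of their spots. Bmp2 rose by 0.83 ± 0.23 in Cyp26b1 knockout against wild type (1.78-fold, adjusted p = 0.0197). The call was lost without the first Cyp26b1 knockout array (0.56, adjusted p = 0.0980), without either wild-type array (adjusted p = 0.0843 and 0.0817) and with no filter on dim probes (adjusted p = 0.0521). With the normexp fit on all spots the sign turned (-0.48, adjusted p = 0.727). It fell by 0.95 ± 0.23 in double knockout against Cyp26b1 knockout (adjusted p = 0.0145), which was not called without the first double knockout array (adjusted p = 0.0564) or the first Cyp26b1 knockout array (adjusted p = 0.0661), nor with normexp on all spots (-0.08, adjusted p = 0.977). Double knockout and wild type differed by -0.12, with an interval from -0.66 to 0.42 and a sign that depended on the scaling.

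Msx2, a homeobox gene that responds to bone morphogenetic proteins and that, with Msx1, takes part in the meiotic entry of germ cells in the mouse ovary, was highest in wild type. Its array means were -2.29 and -2.61 in double knockout, -3.55 and -3.74 in Cyp26b1 knockout, and -1.75 and -1.70 in wild type. The genotypes did not overlap, and spot SDs lay between 0.0346 and 0.235. Msx2 fell by 1.93 ± 0.16 in Cyp26b1 knockout against wild type, to 0.263 of the wild-type level (adjusted p = 0.000204), a call kept under all 18 other settings. It rose by 1.20 ± 0.16 in double knockout against Cyp26b1 knockout (2.29-fold, adjusted p = 0.00163), which was lost with normexp on all spots (adjusted p = 0.292). It fell by 0.73 ± 0.16 in double knockout against wild type (adjusted p = 0.0315). That call did not survive the loss of the second double knockout array (adjusted p = 0.123) or of either wild-type array (adjusted p = 0.140 and 0.180), nor the omission of the filter on dim probes (adjusted p = 0.0718), nor normexp on all spots (adjusted p = 0.897).

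**Figure D3:**
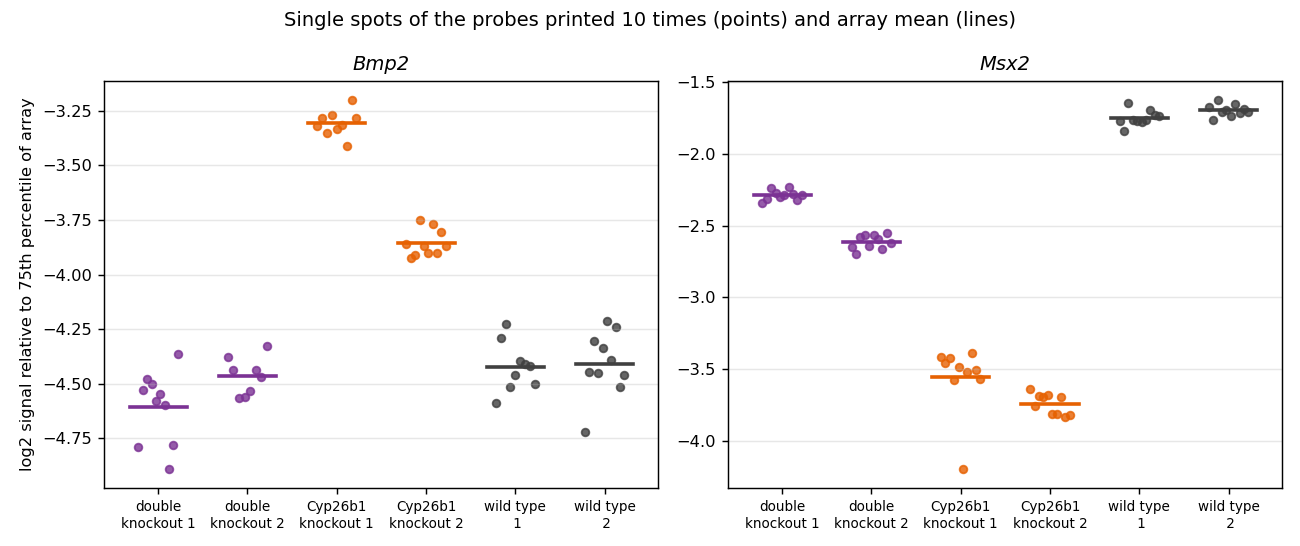
Single spots of the Bmp2 and Msx2 probes on each array, as log2 signal with the array 75th percentile at 0, without spots that the software marked as outliers. Points are spots and lines are array means. The Bmp2 spots of the first Cyp26b1 knockout array, from -3.41 to -3.20, all lie above those of the second, from -3.92 to -3.75, and the Msx2 spots separate all 3 genotypes.

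Dapl1, a gene named for its likeness to a death-associated protein, was measurable in wild type only. Its levels were -7.15 and -6.40 in double knockout and -7.32 and -7.36 in Cyp26b1 knockout, with no array well above background, against -4.62 and -4.50 in wild type, where both arrays were. A bound was set by taking, on each dim array, the higher of the probe's own level and the lowest level of any probe well above background. By that bound Dapl1 was at least 3.46-fold lower in Cyp26b1 knockout and at least 2.17-fold lower in double knockout than in wild type. The fitted changes, -2.78 (adjusted p = 0.000707) and -2.21 (adjusted p = 0.00887), rest on values below background in the knockouts, and their p-values are not those of the bounds. They also carry no weight as tests, since the gene entered the fit through wild type alone. In double knockout the call was lost without the first (adjusted p = 0.0627) or second wild-type array (adjusted p = 0.0808), and both calls were lost with normexp on all spots (adjusted p = 0.645 and 0.897). The knockout genotypes were both below background, so no fold between them is given.

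The levels of the members fell into a few orders. Against wild type, Wnt4, Sp5 and Nr0b1 were higher in both sets of knockout arrays, and Msx2 was lower in both. Dapl1 was also lower in both, but it passed the filter through wild type alone, which favoured a difference. For Msx2 the double knockout level lay between those of Cyp26b1 knockout and wild type, and differed from each by a called change. The genes most like Wnt4 over the 6 arrays, among 12294 genes well above background on all of them, were Fstl3 (Pearson r = 0.99892), Htatip2 (0.998) and Gm2a (0.997). Those most like Msx2 were Trim54 (0.99898), Arl3 (0.99881) and Slc44a1 (0.998). With 6 points in 3 genotypes these values are a description.

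The counts of the pathway lists below include genes that passed the filter through 1 genotype alone, 3 among the Wnt ligands (Wnt1, Wnt3a, Wnt7a) and 1 each among the receptors (Lgr6), feedback targets (Apcdd1) and BMP genes (Nog). Every list count is to be read beside the share of all features called. That share was 51.1% in Cyp26b1 knockout against wild type, 11.9% in double knockout against wild type and 42.9% in double knockout against Cyp26b1 knockout. Of the other genes of the pathway, 15 Wnt ligands could be tested, Wnt4 included. In Cyp26b1 knockout against wild type 6 rose and 2 fell, with a median log2 change of 0.142. Wnt5b, a ligand of the beta-catenin-independent branch, rose by 0.64 (adjusted p = 0.00294), and Wnt5a of the same branch rose by 0.77 (adjusted p = 0.00538), but changed by -0.05 with normexp on all spots. Wnt3a, a ligand of the beta-catenin branch, changed by -1.91, but passed the filter through wild type alone. That favoured a difference, and no p is given for it. Between double knockout and wild type 1 rose, Wnt4 itself, and 1 is counted as fallen, Wnt3a. Since the filter favoured a difference of Wnt3a here too, its place in that count supports nothing. The call of Wnt3a was lost without the second double knockout array, either Cyp26b1 knockout array or either wild-type array. It was also lost with both normexp fits, quantile normalization, median scaling and no filter on dim probes. Between double knockout and Cyp26b1 knockout 1 rose and 3 fell, with Wnt5a falling by 1.34 (adjusted p = 0.000991), a change of -0.58 with normexp on all spots (adjusted p = 0.782). Wnt5a levels were -3.36 and -3.60 in double knockout, -2.07 and -2.21 in Cyp26b1 knockout, and -2.95 and -2.86 in wild type. Cyp26b1 knockout stood on top for this ligand, as for Wnt4.

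Of 21 receptors, R-spondins and partners, Rspo1 and Lgr5 included, 8 rose and 6 fell in Cyp26b1 knockout against wild type, with a median of 0.0619. The receptor gene Fzd8 rose by 1.77 (adjusted p = 0.00025) and Rspo4, another R-spondin, fell by 1.90 (adjusted p = 0.000317). With normexp on all spots these changes were 0.40 (adjusted p = 0.682) and -1.54 (adjusted p = 0.193). Their changes in double knockout against wild type were -0.16 and -0.18 and were not called. Fzd5, also a receptor, rose by 2.22 at its brightest probe, while its other probe changed by 0.49 (adjusted p = 0.148), and its brightest probe by 0.10 with normexp on all spots (adjusted p = 0.938). The list had 3 genes that rose and 0 that fell in double knockout against wild type by limma, and 7 and 2 at an unadjusted p under 0.05. Those that rose were the receptors Fzd6 (0.60) and Fzd7 (0.64) and Rnf43 (0.59), which encodes an enzyme that removes Frizzled receptors from the surface. The other probe of Fzd7 changed the opposite way (-0.42, adjusted p = 0.165), and the mean of both probes by 0.11 (adjusted p = 0.656), so no direction is given for Fzd7. The calls of all 3 were lost without the second double knockout array (adjusted p of 0.0809 for Fzd6, 0.0964 for Fzd7 and 0.0972 for Rnf43) and without either wild-type array (adjusted p from 0.0815 to 0.142). Those of Fzd6 and Fzd7 were also lost without the first double knockout array (0.0554 and 0.0656). With normexp on all spots the 3 changes were 0.27, 0.36 and 0.43, and none was called. In double knockout against Cyp26b1 knockout 7 rose and 5 fell, with Rspo4 at 1.72, Fzd8 at -1.94, and Wls, which carries Wnt proteins to the surface, at 0.72. With normexp on all spots Rspo4 was at 1.11 and Fzd8 at -0.94, neither called, while the call of Wls was kept.

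Of 11 secreted inhibitors, 4 rose and 2 fell in Cyp26b1 knockout against wild type, 2 rose and 0 fell in double knockout against wild type (3 and 2 by limma at an unadjusted p under 0.05), and 4 rose and 1 fell in double knockout against Cyp26b1 knockout. The shares of all features called were 51.1%, 11.9% and 42.9% in that order. Sfrp2, a Wnt-binding protein, gave 0.76 and 1.11 in double knockout, 1.24 and 0.97 in Cyp26b1 knockout, and -0.30 and -0.34 in wild type. It rose by 1.26 in double knockout (adjusted p = 0.00302) and by 1.43 in Cyp26b1 knockout (adjusted p = 0.000298) against wild type. Wif1, another Wnt-binding inhibitor, rose by 1.18 and by 0.65 in those comparisons. The first of these calls was lost without the first wild-type array (adjusted p = 0.0519), and the second without that array (0.0825) or the second Cyp26b1 knockout array (0.0663). With normexp on all spots they were 0.48 and -0.09, and neither was called. The 2 that fell in Cyp26b1 knockout against wild type were Sostdc1 and Dkk2. Mean levels of Sostdc1 were 2.56 in double knockout, 1.98 in Cyp26b1 knockout and 3.01 in wild type. Those of Dkk2 were -3.15, -3.98 and -3.23, and its call was lost with normexp on all spots. In double knockout against Cyp26b1 knockout Sostdc1, Dkk2, Wif1 and Sfrp5 rose and Sfrp4 fell, all calls that normexp on all spots ended.

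Of 14 members of the beta-catenin pathway inside the cell, 4 rose and 5 fell in Cyp26b1 knockout against wild type. The limma fit called 0 of them in double knockout against wild type, where 2 were higher and 2 lower at an unadjusted p under 0.05, with changes between -0.492 and 0.261. The scaffold gene Axin1 of the complex that destroys beta-catenin rose by 1.69 in Cyp26b1 knockout (adjusted p = 0.000111) and changed by 0.15 in double knockout (adjusted p = 0.426), both against wild type. Tcf7, a TCF factor, changed by -0.81 at its brightest probe and by 0.85 at its other probe in Cyp26b1 knockout against wild type, so no direction is given for it.

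The feedback targets of the pathway, which beta-catenin switches on in many tissues, moved both ways. Of 13 tested, with Sp5 and Lgr5 among them, 3 rose and 5 fell in Cyp26b1 knockout against wild type, where the brightest probe of Tcf7 is among those that fell. Double knockout had 4 higher and 1 lower than wild type, and in double knockout against Cyp26b1 knockout 5 rose and 1 fell. Across all features 51.1%, 11.9% and 42.9% were called in these 3 comparisons. Axin2, a widely used readout of beta-catenin activity, gave -1.43 and -1.36 in double knockout, -1.65 and -1.60 in Cyp26b1 knockout, and -0.94 and -0.84 in wild type. It was lower in both sets of knockout arrays, by -0.50 in double knockout (adjusted p = 0.0272) and -0.73 in Cyp26b1 knockout (adjusted p = 0.0014) against wild type. Leaving out either double knockout array or either wild-type array ended the call in double knockout (adjusted p from 0.0756 to 0.183), as did normexp on all spots (-0.43, adjusted p = 0.849) and median scaling (-0.37, adjusted p = 0.0543). Lef1 fell by 1.02 in Cyp26b1 knockout against wild type (adjusted p = 0.00353) and changed by -0.49 in double knockout (adjusted p = 0.129). The cell cycle gene Ccnd1 rose by 0.82 in double knockout (adjusted p = 0.0111) and by 1.03 in Cyp26b1 knockout (adjusted p = 0.000877) against wild type. In double knockout it was not called without the second double knockout array (adjusted p = 0.0504) or the second wild-type array (0.0890), nor with normexp on all spots (0.60, adjusted p = 0.0954).

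Around Fst, 11 genes of the activin and follistatin pathway were tested, Fst included. In Cyp26b1 knockout against wild type 3 rose and 7 fell, with a median of -0.491. Double knockout had 1 higher and 2 lower than wild type, and in double knockout against Cyp26b1 knockout 4 rose and 3 fell. Across all features 51.1%, 11.9% and 42.9% were called in these 3 comparisons. Fstl3, a relative of follistatin that also binds activin, was lowest where Fst was highest, in wild type. Its levels were -1.45 and -1.73 in double knockout, -0.74 and -0.68 in Cyp26b1 knockout, and -2.82 and -2.90 in wild type. It rose by 1.27 in double knockout (adjusted p = 0.00245) and by 2.15 in Cyp26b1 knockout (adjusted p = 9.1e-05) against wild type. The call in double knockout was lost with normexp on all spots (0.46, adjusted p = 0.816). Inhbb, the activin beta-B subunit that Sertoli cells also make, fell by 0.53 in double knockout (adjusted p = 0.0246) and by 0.57 in Cyp26b1 knockout (adjusted p = 0.00431), both against wild type, although the other probe of Inhbb changed by 0.33 in Cyp26b1 knockout and was not called. Its call in double knockout was lost without the second double knockout array (adjusted p = 0.110) or either wild-type array (0.142 and 0.0944). With normexp on all spots it changed by -0.37 and -0.33 in those comparisons and was not called.

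Around Bmp2 and Msx2, 23 genes of the BMP pathway were tested, both included. In Cyp26b1 knockout against wild type 8 rose and 9 fell, in double knockout against wild type 1 rose and 3 fell, and in double knockout against Cyp26b1 knockout 8 rose and 6 fell. The shares of all features called were 51.1%, 11.9% and 42.9% in that order. Smad7, an inhibitor inside the cell of BMP and activin signals, gave 0.62 and 0.51 in double knockout, -0.43 and -0.52 in Cyp26b1 knockout, and 1.37 and 1.35 in wild type. It had the same order as Msx2, with called changes of -0.79 in double knockout and -1.83 in Cyp26b1 knockout against wild type, and of 1.04 in double knockout against Cyp26b1 knockout. Nog, which encodes the BMP antagonist noggin, was well above background in Cyp26b1 knockout alone, and was at least 5.25-fold higher there than in wild type. It passed the filter through that genotype alone, which favoured a difference, and no p is given for it. With normexp on all spots Nog changed by -0.32 there and was not called. Id2, a BMP target, rose by 0.99 in double knockout against Cyp26b1 knockout and fell by 0.98 in Cyp26b1 knockout against wild type. Other genes of the list had the opposite order, with Cyp26b1 knockout highest and wild type lowest. Mean levels of Msx1 were -2.78 in double knockout, -2.17 in Cyp26b1 knockout and -3.34 in wild type. Those of Id3 were 2.63, 3.22 and 2.45.

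Other genes known from the somatic cells of the mouse fetal ovary gave no common rise. Of 10 listed, 6 were tested, and Irx1, Irx3, Irx5 and Cyp19a1 were on the array without passing the filter. By limma 0 rose and 3 fell in Cyp26b1 knockout against wild type (0 and 3 at an unadjusted p under 0.05), namely the nuclear receptor gene Nr5a2 (-1.35), Greb1 (-0.86) and Esr2, an estrogen receptor (-0.73). Esr2 was not called without the second Cyp26b1 knockout array (adjusted p = 0.0683) or either wild-type array (0.0792 and 0.0848), nor with normexp on all spots (adjusted p = 0.552). Runx1, a factor of pregranulosa cells, rose by 0.97 (adjusted p = 0.0431) and Nr5a2 fell by 0.99 (adjusted p = 0.0306) in double knockout against wild type. The call of Runx1 was lost without any 1 of the 6 arrays (adjusted p from 0.0564 to 0.231), and its sign turned with normexp on all spots (-0.34). The call of Nr5a2 was lost without either double knockout or either wild-type array (0.0833 to 0.165) and with normexp on all spots (adjusted p = 0.580). Against Cyp26b1 knockout, limma called 0 of the 6 in double knockout, and 3 were higher and 0 lower at an unadjusted p under 0.05.

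**Figure D4:**
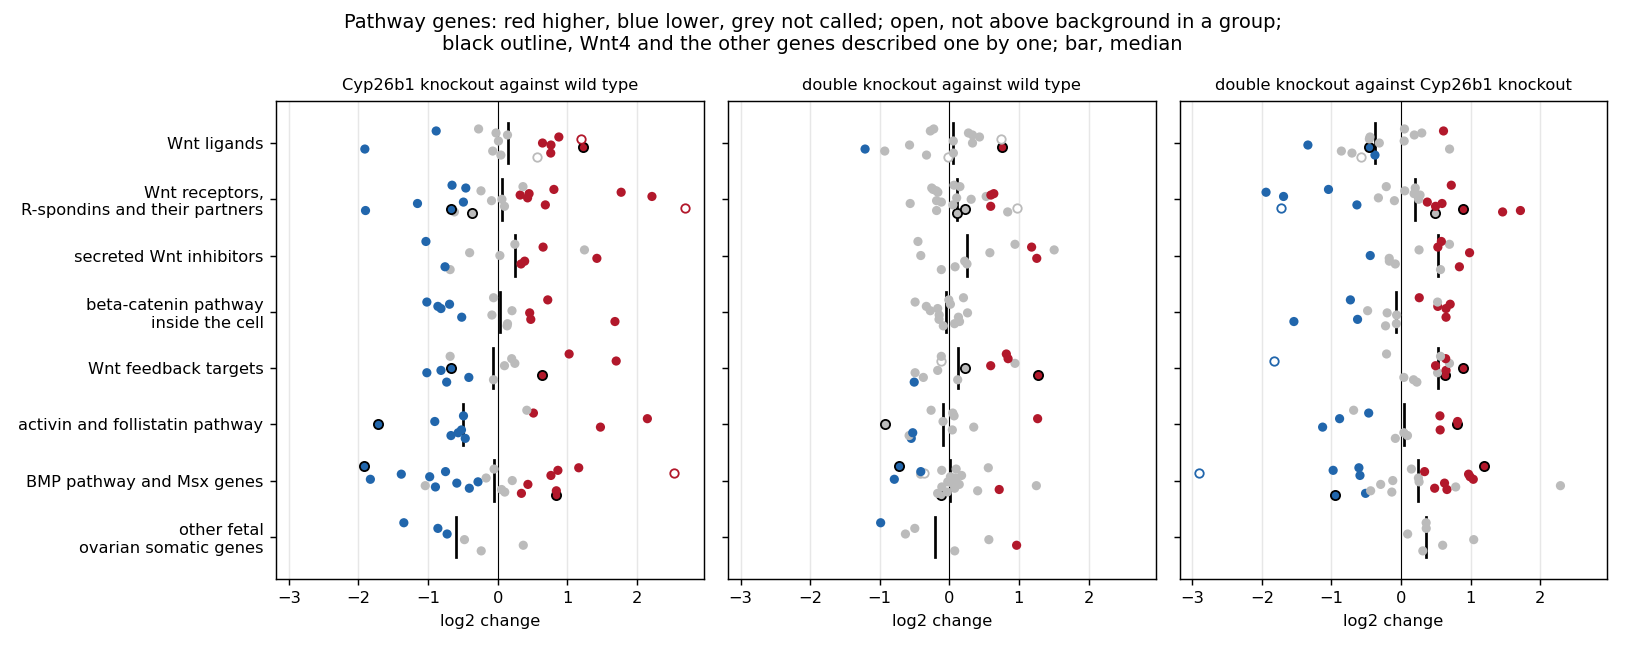
Log2 change of each tested gene of the pathway lists in the 3 comparisons, the genotype named first over the one named second. Red points rose, blue points fell and grey points were not called, open points are genes not above background in 1 of the genotypes, black outlines mark the genes described one by one, and bars are list medians. Called changes spread to both sides in most lists of the left and right panels, and few points are called in the middle panel.

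The markers of cells other than the pregranulosa lineage moved with some of these values. The summed signal of 6 Leydig markers, as multiples of the 75th percentile of each array, was 81.2 to 96.7 in double knockout, 58.6 to 77.9 in Cyp26b1 knockout, and 94.6 to 110 in wild type. That of 6 gonad surface epithelium markers was 17.5 to 18.6, 14.5 to 16.0 and 22.3 to 23.1 in the same order of genotypes. Both were lowest in Cyp26b1 knockout, as were Fst, Msx2 and Lgr5 and the endothelial sums below, while Wnt4 and Bmp2 were highest there. For the Leydig markers double knockout and wild type overlapped. A sum is led by its brightest probes, and single markers did not all follow it. Counts of called markers are to be read beside the shares of all features called. These were 51.1% in Cyp26b1 knockout against wild type and 11.9% in double knockout against wild type. In Cyp26b1 knockout against wild type 0 Leydig markers rose and 3 fell by limma (1 and 4 at an unadjusted p under 0.05), while the other probe of the Leydig enzyme gene Cyp11a1 was called higher (0.59, adjusted p = 0.0167). Of the surface epithelium markers 1 rose, Upk3b (0.97), and 3 fell, and Lhx9 was called lower at its brightest probe (-0.82) and higher at its other probe (0.76, adjusted p = 0.00421). The sums of 12 Sertoli markers were 159 to 188, 180 to 188 and 150 to 168. Against wild type, 4 of the 12 rose and 3 fell in Cyp26b1 knockout, and 2 rose and 3 fell in double knockout. Dmrt1 rose by 2.86 and 1.22 in that order, and Amh was called lower in both (-0.402 and -0.467). With normexp on all spots both calls of Amh were lost, and that of Dmrt1 in double knockout. The calls of Amh were also lost without some single arrays. In double knockout, Cyp26b1 knockout and wild type the sums of 8 germ cell markers were 99.9 to 117, 81.4 to 103 and 88.1 to 89.2. Single germ cell markers differed, with Rec8 at mean levels of 4.93, 4.63 and 1.87 in the same order of genotypes. Ddx4 stood at 4.29, 3.93 and 4.39, and Mael at 4.27, 3.63 and 4.71. Against wild type, 3 of the 8 rose and 1 fell in double knockout, and 4 rose and 2 fell in Cyp26b1 knockout. Of 7 tested mesonephros and duct markers, summed signals were 0.917 to 0.956, 0.775 to 1.22 and 1.08 to 1.49. In Cyp26b1 knockout against wild type 1 of them rose, the kidney and duct factor Pax2, and 2 fell, Emx2 and Lhx1. Pax2 was well above background in Cyp26b1 knockout alone and passed the filter through it, which favoured a difference. With normexp on all spots Pax2 changed by -0.91 there, Emx2 by -0.55 and Lhx1 by -1.01, and none was called. The calls of Emx2 and Lhx1 were also lost without some single arrays. The other probe of Emx2 changed by -0.02 (adjusted p = 0.941). The sums of 7 endothelial markers were 13.9 to 14.5, 11.2 to 11.6 and 11.7 to 12.3, although 4 of the 7 rose and 2 fell in Cyp26b1 knockout against wild type (median log2 change 0.541). Of those that fell, Cdh5 was called higher at its other probe (1.04, adjusted p = 0.000828), so no direction is given for it. The sums of 6 blood and macrophage markers were 4.79 to 5.41, 4.09 to 5.97 and 6.49 to 7.51. The part of these cells in the values of the 10 genes was not tested. Of 7 retinoic acid response genes, 5 rose in double knockout and 5 in Cyp26b1 knockout against wild type, with Rarb, a receptor that retinoic acid induces, at 1.90 and 1.95. Of all features, 5.31% and 21.3% rose in those comparisons. The other 2 genes were not called and stood lower in both knockouts. Stra6 had mean levels of -1.98, -1.73 and -1.25 in double knockout, Cyp26b1 knockout and wild type, and Crabp2 -4.50, -4.44 and -4.06. By limma 1 was lower in double knockout at an unadjusted p under 0.05.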

How the data were processed

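The authors deposited 1 scanner file per array, with spot intensity on a linear scale read with Agilent Feature Extraction (9.5.3.1 per the file headers, 9.5 per the submitters' processing notes), which had subtracted background. They also deposited a value table of 1 ratio per probe and genotype. Its log2 differences followed the scanner values (smallest Pearson r 0.999995), shifted by -0.200 for double knockout and 0.103 for Cyp26b1 knockout, each minus wild type. Its centring is unknown. A total of 0 columns of other series were left out.

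Here log2 processed signals were taken relative to the 75th percentile of each array, without control and outlier spots, and spots of a probe were averaged. Accessions were matched to RefSeq names (GRCm38.p6): of 41174 probes 23374 had 1 symbol, 0 several and 17800 none, and 25 had no usable spot. A gene was its brightest probe. The array's own annotation uses an older build, so probe coordinates are not used here. All 6 arrays entered 1 limma fit (3.58.1, R 4.3.3, trended eBayes, 3 residual and 4.37 prior degrees of freedom), with Benjamini-Hochberg adjustment over 21552 features. An exact permutation test of 2 arrays against 2 cannot go below p = 0.333. The number of arrays limits the precision. The fit was tested on simulated data.

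The 18 alternatives changed background correction, scaling, filter, probe choice, variance model, arrays or block. The normexp fits used the median spot signal, since the files hold no mean signal, with an offset of 50. Named genes are the 10 members, Cyp26b1, Stra8, per list and comparison up to 3 genes of smallest adjusted p, the defining markers of the tissue and the 3 genes most like Wnt4 and Msx2. Genes counted as calls of 5 or fewer, or found on the array without being tested, are named as well. So are some genes of a list that moved against those named from it. Members and lists were chosen with earlier results of these data known, so they give no independent support. Promoter sequences are RefSeq's.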

Additional observations from a re-analysis of the deposited data

How the results depend on the processing

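Of the 9 tested genes, 8 were called in Cyp26b1 knockout against wild type, 5 in double knockout against wild type and 7 in double knockout against Cyp26b1 knockout. The 8 and the 5 include Dapl1, which passed the filter through wild type alone, so that the filter favoured a difference. With normexp fitted on all spots the 3 counts of called genes were 4, 3 and 3. Without 1 array they ran from 6 to 8, from 3 to 6 and from 5 to 6, and the count of 3 in double knockout against wild type came without wild-type replicate 1 and without replicate 2. Wnt4 in both knockouts against wild type, Nr0b1 in all 3 comparisons, Msx2 in Cyp26b1 knockout against wild type, Sp5 in double knockout against wild type and Lgr5 in double knockout against Cyp26b1 knockout kept direction and call under all 18 settings. Signs turned for Bmp2 in Cyp26b1 knockout against wild type (-0.48, normexp on all spots) and in double knockout against wild type (0.0095 with normexp without marked spots, 0.058 with quantile normalization, 0.012 with median scaling). They also turned for Dapl1 in double knockout against Cyp26b1 knockout (-0.072, normexp without marked spots) and for Rspo1 in double knockout against wild type (-0.091, authors' centring). The cause was not tested. Features called were 11007, 2554 and 9238 in the 3 comparisons, and 3645, 534 and 2686 with normexp on all spots. In double knockout against wild type they were also 4970 with the authors' centring, 1518 with no filter, 1550 and 1324 without double knockout replicate 1 and 2, and 675 and 542 without wild-type replicate 1 and 2. In double knockout against Cyp26b1 knockout they were 14219 with no filter. The share of calls that were higher in double knockout against wild type was 44.8%, against 71.1% with median scaling, 13.5% with the authors' centring and 59.4% with normexp on all spots. In double knockout against Cyp26b1 knockout it was 58.9%, against 70.7%, 22.7% and 72.6% (no filter), and in Cyp26b1 knockout against wild type 41.7%, against 51.7% with the authors' centring. The median change of all features in double knockout against wild type was -0.0170, 0.113 with median scaling and -0.217 with the authors' centring. With that centring the Wnt feedback targets gave 3 higher and 4 lower there, and the Wnt ligands 1 and 5. Against Cyp26b1 knockout the feedback targets gave 2 and 2 and the secreted inhibitors 0 and 4. Among the other genes that the naming rule takes, 71, 37 and 55 changes were called in the 3 comparisons, and 19, 23 and 24 of these calls were lost without some 1 array. Another scaling ended 5, 14 and 25 of them, normexp on all spots 35, 23 and 38, and 7, 1 and 6 turned in sign under some setting. The array number was also fitted as a replicate block. Deviations of arrays with the same number had correlations of 0.108 to 0.201, but with 2 arrays per genotype, numbered by file, they share only a number. With the replicate block 8, 6 and 7 of the genes were called, and the only changed call was that of Fst in double knockout against wild type. A slide block was not run because each slide holds 1 genotype. Signal over background limits Foxl2 and Dapl1, whose probes were dim.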
